A study of Mus musculus with 21 samples.

Results

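The comparison described here set monocyte-derived cells against endogenous microglia, both sorted from the brains of mice 5 days after seizures. It was chosen by sample label and not by measured values. It took in 9 of the 21 RNA-seq libraries of the study: 6 of transplanted monocyte-derived cells (MLC) and 3 of microglia from mice without a transplant (NoTx). The question was how cells of monocyte origin that occupy the brain differ from its own microglia once seizures have occurred.

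Microglia, the macrophages that live in brain tissue, descend from embryonic yolk sac progenitors. Monocytes descend from blood stem cells, and when they settle in a brain emptied of microglia they take on the shape and some of the genes of microglia. Microglial identity is held in place by transcription factors such as Sall1 and by growth factors acting through the receptor Csf1r. Seizures activate microglia, and kainic acid, an agonist of glutamate receptors, is a standard way to provoke them.

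The MLC were labelled as transplanted monocytes and as monocyte-derived microglia of the genotype Osb-GFP. The NoTx cells were labelled as microglia of the genotype CX3CR1-CreER+/-; CSF1R fl/fl, in which the Cx3cr1 gene of macrophages drives an inducible Cre recombinase and the Csf1r alleles are floxed. Whether these mice received tamoxifen, in which host genotype the monocytes engrafted, and how the cells were gated are not stated in the labels. All animals were adults treated with kainic acid, and all 9 libraries were labelled batch 1. Transplantation and genotype go with the kind of cell in every library, so the 3 cannot be told apart. The labels call each library a biological replicate. MLC replicates 3 and 6 bear the codes of replicates 2 and 4, preceded by 11b. The labels do not say whether such pairs share an animal. A further 4 seizure libraries of transplanted microglia (MG, Osb-GFP) entered the fit to estimate the spread. The labels of 5 saline libraries, 3 MLC and 2 NoTx, gave the same contrast without seizures.

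Estimated counts per library ran from 6571292 to 37494224 in MLC and were 14876797, 73842049 and 18663696 in NoTx replicates 1, 2 and 3. Between 13082 and 16421 genes were detected in MLC and between 14387 and 17616 in NoTx. Log2 CPM (counts scaled to a common library size after TMM normalisation) correlated between libraries of a group from 0.704 to 0.843 in MLC and from 0.759 to 0.802 in NoTx. MLC replicate 5 stood apart in base composition, with a difference between GC-rich and GC-poor genes of -2.47 log2 units relative to the average library, and NoTx replicate 3 lay at the other end (1.60). Transcripts of the Y chromosome summed to at least 511 CPM in each MLC library, the 3 coded F included, where Xist was at most 7.95 CPM. NoTx replicates 1 and 3, coded F, had 151 and 304 CPM of Xist, the RNA that silences an X chromosome in females, and NoTx replicate 2, coded M, had 2.17. Transcripts of the sex chromosomes were thus unbalanced between the groups. Only NoTx replicate 2 shared the MLC pattern of low Xist with Y transcripts (367.7 CPM). A difference by sex, also in autosomal genes, is therefore not separated from the kind of cell. Of the genes reported next, 251 of the 266 higher and 291 of the 308 lower ones were autosomal.

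Of 14126 genes that passed the low-count filter, 574 (4.06%) differed between MLC and NoTx at an adjusted p under 0.05 in edgeR's quasi-likelihood test with Benjamini-Hochberg adjustment. In MLC 266 (1.88%) were higher and 308 (2.18%) lower, and these are the genes called here. Higher calls had a median log2 fold change of 5.90 and lower calls a median size of 2.72. The median over all genes was -0.04. The 6 MLC and 3 NoTx libraries did not overlap in 11.9% of all genes tested (5.67% higher in MLC and 6.18% lower), in 264 of the higher calls and in 273 of the lower ones. With NoTx replicate 2 as the only NoTx library, which removes both libraries with high Xist, 145 genes were called. Of 573 calls tested there, 568 kept their sign and 140 their call. MLC without replicates 3 and 6 gave 345 calls, and adding each to its partner gave 390. Without NoTx replicate 2 calls numbered 349, and without NoTx replicate 3, 361.

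**Figure D1:**
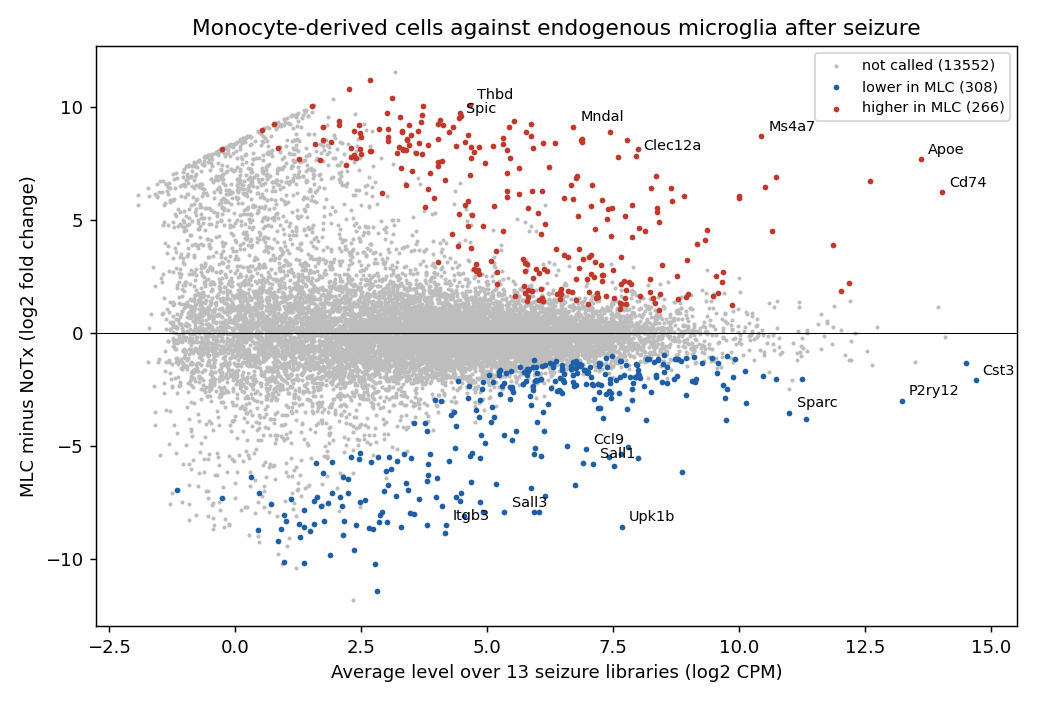
Each point is 1 of 14126 genes, placed by its average level over the 13 seizure libraries (log2 CPM, x axis) and by its log2 fold change between MLC and NoTx (y axis). The 266 higher calls (red) reach a log2 fold change of 11.21 and the 308 lower calls (blue) a size of 11.43. The typical lower call lies closer to 0. For 30 higher and 34 lower calls the other group had at most 3 counts over all its libraries.

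The plot of fold change against level shows this asymmetry in the typical size of a call. Abundant microglial transcripts such as P2ry12, Cst3 and Sparc lie on the lower side at a moderate distance from 0, whereas Ms4a7, Apoe and Cd74 lie far above it.

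The NoTx genotype names Csf1r and Cx3cr1, which are given first as a check of the labels. Csf1r, the receptor for the growth factors that keep microglia alive, had 1030, 2286 and 8746 CPM in NoTx replicates 1, 2 and 3. In MLC it ran from 385 to 2029 CPM with a median of 814, so the groups overlapped. The log2 fold change was -2.09 (SE 0.58, adjusted p = 0.0566). It rested on NoTx replicate 3, the library at the GC-rich end: without it the value was -0.90 (adjusted p = 0.483). Without NoTx replicate 1, or without MLC replicate 2, Csf1r passed (adjusted p = 0.0196 and 0.0244). Cx3cr1 encodes the receptor for fractalkine, a neuronal chemokine. Its level was 852, 2330 and 4730 CPM in NoTx and 882 to 3019 in MLC (median 1128), with a log2 fold change of -0.85 (SE 0.48) that did not pass (adjusted p = 0.393). A floxed exon can be lost while the rest of a gene is read, so counts over the whole gene do not show whether Csf1r was deleted. The labels do not state what the CreER allele does to Cx3cr1 itself, so kind of cell and genotype cannot be told apart in its level.

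Transcription factors of microglial identity were lower in MLC by wide margins. Sall1, a zinc finger repressor that keeps microglia from acting as other macrophages, had 253, 252 and 316 CPM in the NoTx libraries. The 6 MLC libraries had 1.72 to 10.6 CPM (median 4.33), all far below the lowest NoTx library. The log2 fold change was -5.80 (SE 0.45, adjusted p = 1.03e-06). Its relative Sall3 had 116, 101 and 45.3 CPM in NoTx and at most 0.523 in MLC (-7.94, SE 0.82, adjusted p = 1.65e-05). In the other direction Spic, a factor of iron-recycling macrophages in spleen and bone marrow, had 35.03 to 64.9 CPM in MLC (median 43.1). NoTx libraries had at most 0.0687 CPM of Spic (9.51, SE 1.00, adjusted p = 1.86e-05).

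Of the factors that macrophages share, 3 did not pass. Spi1, which encodes PU.1, the master regulator of myeloid cells, had a median of 19.3 CPM in MLC and 9.90, 13.01 and 26.0 in NoTx, with overlap (log2 fold change 0.22, SE 0.65, adjusted p = 0.926). Irf8 (-0.40, SE 0.36) and Mef2c (-0.39, SE 0.23), which act with PU.1 in microglia and macrophages, had adjusted p values of 0.662 and 0.417. Of 26 tested members of the list of myeloid lineage factors 2 were higher and 2 lower.

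Most genes that define homeostatic microglia were called lower in MLC, but few were silent. Of 24 tested members all had a negative log2 fold change (median -2.10, against -0.04 over all genes), and 16 were called lower. P2ry12, the ADP receptor that guides microglial processes to injury, had 21000, 19380 and 12560 CPM in NoTx. MLC kept 1736 to 2718 CPM of it (median 2210), a level below every NoTx library but far from absent (-3.00, SE 0.25, adjusted p = 1.55e-06). The matricellular protein gene Sparc had 3167, 4144 and 3701 CPM in NoTx and 217 to 547 in MLC (median 269; -3.54, SE 0.29, adjusted p = 1.38e-06). Siglech, a sialic acid receptor, had 1252, 1309 and 1605 CPM in NoTx and 208 to 382 in MLC (-2.33, SE 0.27, adjusted p = 4.17e-05). Cst3, the protease inhibitor cystatin C, was lower by a log2 fold change of -2.11 (SE 0.27) and P2ry13, another ADP receptor, by -2.05 (SE 0.31). Cst3 lost its call with the GC-content correction (adjusted p = 0.0943).

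A smaller set of homeostatic genes was close to off in MLC. Slc2a5, a fructose transporter, had 355, 1161 and 1532 CPM in NoTx and 1.94 to 31.5 in MLC (median 14.7; -6.17, SE 0.68, adjusted p = 3.36e-05). Jam2, a junctional adhesion molecule, had 185, 240 and 166 CPM in NoTx and 0.685 to 5.08 in MLC (-6.74, SE 0.55, adjusted p = 1.38e-06). Ecscr, a surface protein shared with endothelium, had 453, 621 and 454 CPM against 4.51 to 16.5 (-5.56, SE 0.38, adjusted p = 3.82e-07). Selplg, the ligand of P-selectin, Golm1, a Golgi membrane protein, and Pros1, the bridge between dying cells and TAM receptors, were lower as well (-3.82, SE 0.62; -2.90, SE 0.46; -1.95, SE 0.33).

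Other members of the list did not pass. Tmem119, a marker of microglia among brain myeloid cells, had 732, 2708 and 7725 CPM in NoTx and 177 to 1794 in MLC (-2.50, SE 0.75, adjusted p = 0.0787). It passed without MLC replicate 2 (adjusted p = 0.0252) or without NoTx replicate 1 (0.0389). Trem2, a lipid receptor of microglia, had 1884, 2818 and 2194 CPM in NoTx and 582 to 1397 in MLC without overlap, yet did not pass (-0.95, SE 0.28, adjusted p = 0.0715). Among the single libraries left out, the number of members called stayed between 14 and 18, and with NoTx replicate 2 alone it was 12.

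**Figure D2:**
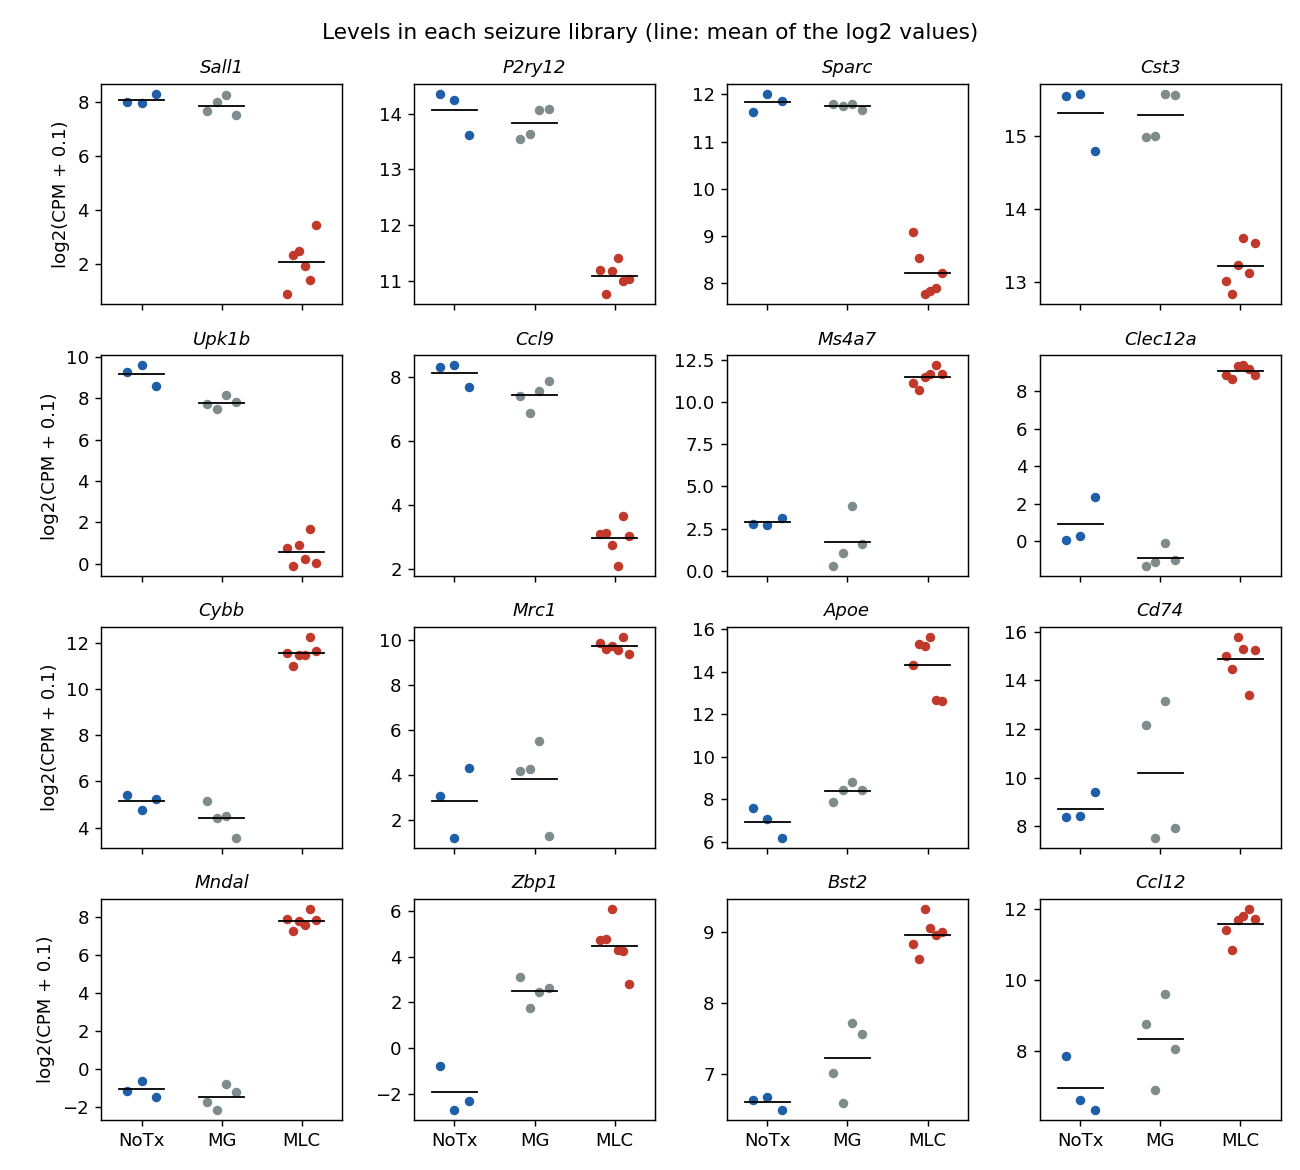
Level of 16 genes in each seizure library (log2 of CPM plus 0.1, y axis), with 1 point per library for NoTx (n = 3), MG (n = 4) and MLC (n = 6) and a line at each group's mean of the log2 values. Sall1, P2ry12, Sparc, Cst3, Upk1b and Ccl9 are lower in every MLC library than in any NoTx library, and the other 10 genes are higher.

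The plot of levels by library includes transplanted microglia, which carry the Osb-GFP genotype and a transplant as MLC do. Unlike MLC, each MG library had high Xist (178.3 to 391.3 CPM) together with Y transcripts (72.4 to 212.2 CPM). A difference by sex is thus not separated from the kind of cell between MLC and MG either. For Sall1 their range was 185 to 306 CPM and for P2ry12 11890 to 17410 CPM. With edgeR no gene was called between MG and NoTx after seizure (0 of 14126, with 804 at an unadjusted p under 0.05). DESeq2 called 118 higher and 64 lower in MG, and limma-voom 1 and 9. Between MLC and MG 531 genes (3.76%) were called, 250 higher (1.77%) and 281 lower (1.99%), in a comparison that shares the MLC libraries with the present one.

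Genes known to mark bone-marrow-derived macrophages in the brain were mostly called higher in MLC. Of 28 tested members 23 were called higher and 0 lower, with a median log2 fold change of 5.67. The list was written with earlier results of these data known, so these counts describe the libraries and do not test the origin of the cells. The Ms4a family of tetraspan membrane proteins contributed several. Ms4a7 had 1713 to 4692 CPM in MLC (median 3097) and 6.74, 6.41 and 8.48 CPM in NoTx (8.71, SE 0.89, adjusted p = 1.5e-05). Ms4a14 had 91.8 to 226 CPM in MLC and at most 0.505 in NoTx (8.40, SE 0.60, adjusted p = 3.87e-07). Ms4a4a (7.33, SE 0.78), Ms4a6c (4.12, SE 0.50) and Ms4a6b (2.26, SE 0.35) were also called, the last pair from NoTx levels of 32.8 to 98.5 and of 195 to 362 CPM.

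Receptors and enzymes of the same list showed wide gaps as well. Clec12a, an inhibitory lectin receptor for uric acid crystals, had 406 to 658 CPM in MLC (median 524) and 0.962, 1.10 and 4.96 in NoTx (7.85, SE 0.67, adjusted p = 2.1e-06). Cybb, which encodes the subunit that makes superoxide in phagocytes, had 2028 to 4864 CPM in MLC (median 2939) and 42.2, 26.9 and 37.6 in NoTx (6.46, SE 0.48, adjusted p = 5.86e-07). It was the only 1 of 8 tested oxidase genes to be called, and the median of the 8 was -0.19. Lyz2, lysozyme, was present in both groups, with 3993 to 11850 CPM in MLC and 398, 471 and 673 in NoTx (3.88, SE 0.38, adjusted p = 1.1e-05). Klra2, a Ly49 receptor, and Cd38, an enzyme that consumes NAD, were higher too (8.46, SE 0.77; 8.62, SE 0.84). Klra2 belongs to a family of close copies, and reads shared within it may have been divided among members.

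Apoe, the lipid carrier that is also a leading gene of disease-associated microglia, had 6307 to 50300 CPM in MLC and 189, 133 and 72.4 CPM in NoTx. The MLC values fell into 4 libraries at 20450 or more and a pair, replicates 5 and 6, at 6436 and 6307, and all lay above NoTx (7.68, SE 0.85, adjusted p = 3.45e-05). Leaving out any single library left 17 to 22 members of the list called, and NoTx replicate 2 as the only NoTx library left 12.

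Macrophages of the brain's borders share part of this set, and 8 of 16 tested border genes were called higher and 0 lower (median 5.77). The mannose receptor Mrc1 had 676 to 1124 CPM in MLC (median 814) and 8.39, 2.22 and 19.9 CPM in NoTx (6.40, SE 0.91, adjusted p = 0.000386). Pf4, a chemokine known from platelets, had 145 to 263 CPM against 1.51, 2.63 and 5.27 (5.98, SE 0.75, adjusted p = 0.000119). Not all border genes followed. Cd163, the haemoglobin scavenger, had 1.33 to 16.9 CPM in MLC and 0, 0.0433 and 2.74 in NoTx (adjusted p = 0.53). Folr2, a folate receptor, had at most 7.32 CPM in MLC, where replicates 3 and 5 were at 0, and 2 counts over the 3 NoTx libraries. Lyve1, Cd209f, Cd209b and Clec10a were too low to be tested.

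Of the genes induced by interferon, some were called higher in MLC and none lower. For the type I response 43 genes were tested, of which 40 had positive values (median 2.09), and 11 were called higher and 0 lower. Bst2, which tethers budding viruses, had 393 to 642 CPM in MLC (median 503) and 99.7, 103 and 90.8 in NoTx (2.37, SE 0.32, adjusted p = 0.000193). Zbp1, a sensor of Z-form nucleic acids, had 6.88 to 67.3 CPM in MLC and at most 0.481 in NoTx (7.07, SE 1.22, adjusted p = 0.0021). Ifi44, Usp18, a brake on interferon signalling, and Rtp4 followed (8.07, SE 1.38; 3.10, SE 0.64; 1.89, SE 0.39). Usp18 lost its call without NoTx replicate 3 (adjusted p = 0.0707), and Rtp4 without NoTx replicate 2 (0.0654) or 3 (0.0761). The number of members called was 7 without NoTx replicate 2 or 3 and 2 with NoTx replicate 2 alone, while DESeq2 called 24 and limma-voom 23.

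The next list holds the PYHIN proteins, sensors of cytosolic DNA, and the interferon-inducible GTPases, which attack the vacuoles of pathogens. Of 29 tested members 28 were positive (median 4.12), and 14 were called higher and 0 lower. DESeq2 called 22 higher. Mndal had 151 to 341 CPM in the MLC libraries (median 223) and 0.344, 0.549 and 0.259 in NoTx (9.13, SE 0.57, adjusted p = 1.58e-07). Ifi203 had 188 to 379 CPM in MLC and 0.962, 0.982 and 7.55 in NoTx (6.55, SE 0.85, adjusted p = 0.000158). Ifi211 had 62.5 to 227 CPM against 0.481, 0.347 and 0.0517 (8.72, SE 1.49, adjusted p = 0.00199). Among the GTPases Tgtp2 had 982 to 2873 CPM in MLC (median 1857) and 38.3, 28.6 and 28.7 in NoTx (5.97, SE 0.97, adjusted p = 0.00137). Gbp6 (8.40, SE 1.46), Gbp8 (6.85, SE 1.29), Iigp1 (6.95, SE 1.34) and Ifi47 (5.17, SE 0.94) did not overlap between the groups either. Several of these genes are close copies of each other, so reads they share may have been divided among them by a rule the sources do not state. With NoTx replicate 2 as the only NoTx library 3 members were called, and without any 1 of the NoTx libraries 11 or 12.

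For these lists, and for Cybb of the macrophage list, the upstream sequence was read for the interferon-stimulated response element. Interferon regulatory factors bind to this element. The sequences are 100 bases directly upstream of a transcription start in the RefSeq promoter table of build GRCm38.p6, written in the direction of the gene, with the core of that element (GAAA, any 2 bases, GAAA, or the reverse complement) in capitals. The deposited counts were made on GRCm39, so these coordinates belong to the RefSeq table only. All sequences shown hold the core, so they do not show how common it is. In the longer window of the search described next, only 1 of the 2 starts of Ifi203 held it. The start of Ifi47, also called higher, did not. Mndal, Ifi203 (the second of its 2 starts in the table) and Ifi211 lie on the minus strand at chr1:173880188-173880287, chr1:173942493-173942592 and chr1:173913047-173913146, Gbp2 on the plus strand at chr3:142620563-142620662, and Cybb on the minus strand at chrX:9469325-9469424.
Mndal: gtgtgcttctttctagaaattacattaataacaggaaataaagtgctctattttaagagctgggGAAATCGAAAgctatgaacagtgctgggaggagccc
Ifi203: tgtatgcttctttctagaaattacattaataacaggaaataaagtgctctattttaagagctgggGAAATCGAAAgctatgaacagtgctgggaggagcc
Ifi211: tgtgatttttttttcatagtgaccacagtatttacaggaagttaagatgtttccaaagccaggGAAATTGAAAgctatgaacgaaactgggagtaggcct
Gbp2: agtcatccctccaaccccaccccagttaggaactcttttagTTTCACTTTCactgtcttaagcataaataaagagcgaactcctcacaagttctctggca
Cybb: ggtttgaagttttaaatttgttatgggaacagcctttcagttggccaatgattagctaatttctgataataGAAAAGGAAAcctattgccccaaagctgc
The core starts 36, 35 and 37 bases before the start of Mndal, Ifi203 and Ifi211, 59 before that of Gbp2 and 29 before that of Cybb. Mndal and Ifi203 carry the same letters, GAAATCGAAA, Ifi211 and Cybb other fillings of the core, and Gbp2 matches on the opposite strand, where it reads TTTCACTTTC in the direction of the gene.

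Searched on both strands over 250 bases upstream, the same core was present for 3.46% of all 27025 RefSeq genes and for 3.53% of the 9486 tested genes matched to the table. It was present for 24 of 186 matched genes called higher (12.9%) and for 8 of 228 called lower (3.51%). Among PYHIN and GTPase genes it was found for 8 of 9 matched called members (88.9%) and for 17 of 20 matched tested members (85.0%), so called members held it about as often as the list as a whole. In the type I interferon list it was found for 13 of 32 matched tested members (40.6%) and for 2 of 7 matched called members (28.6%). The shorter ETS core GAGGAA, which PU.1 binds, was present for 26.1% of matched tested genes, 39.8% of those higher and 32.0% of those lower, and it overlapped the interferon core in 41 of 32851 windows. These are matches of letters in 1 window per start and not sites of binding.

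MHC class II genes, which present antigen to helper T cells, reached very different levels in the groups. Of 15 tested members 7 were called higher and 0 lower (median 1.33). H2-Ab1, a class II beta chain, had 1713 to 25080 CPM in MLC (median 12180) and 61.3, 92.3 and 209 in NoTx (6.73, SE 1.33, adjusted p = 0.00643). Cd74, the chaperone of class II molecules, had 10700 to 56290 CPM against 331, 340 and 674 (6.23, SE 1.20, adjusted p = 0.00534). Without the filter on low counts both lost their calls (H2-Ab1 adjusted p = 0.0786, Cd74 0.0696) and the list had 3. The lowest MLC value was that of replicate 5 for both genes, and no MLC library overlapped with NoTx. Ciita, the transactivator of class II genes, had 1.59 CPM in MLC replicate 5, 38.5 to 103 in the other 5 and at most 0.412 in NoTx (7.75, SE 1.69, adjusted p = 0.0132). It lost its call without NoTx replicate 2 (adjusted p = 0.0681) or 3 (0.0745). The list kept 3, 3 and 4 calls without NoTx replicates 1, 2 and 3, 2 without MLC replicates 3 and 6 together, and 0 with NoTx replicate 2 alone. The MG libraries, which enter the estimate of the spread, ranged from 57.6 to 2488 CPM of H2-Ab1.

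Among MHC class I genes 17 of 22 tested members were positive (median 0.80), and 1 was called higher, H2-K1, a classical class I heavy chain. It had 562 to 1870 CPM in MLC and 144, 210 and 229 in NoTx (2.71, SE 0.59, adjusted p = 0.0124), and the call was lost without any 1 of NoTx replicates 1, 2 and 3 (adjusted p = 0.067, 0.0591 and 0.0613). With the GC-content correction 8 members of this list were called and with DESeq2 9.

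**Figure D3:**
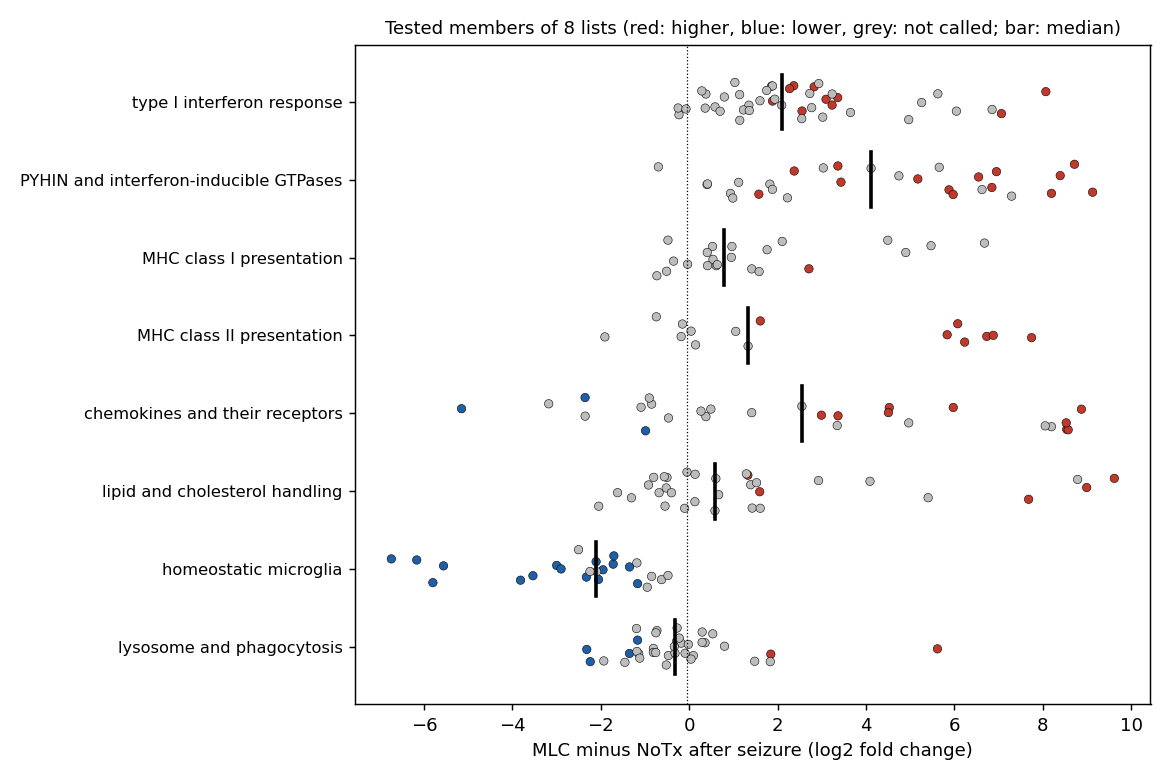
Log2 fold change between MLC and NoTx (x axis) of each tested member of 8 gene lists (rows), coloured by call, with a bar at the list's median and a dotted line at the median of all genes (-0.04). Members of the interferon and PYHIN lists lie almost wholly to the right of that line and homeostatic microglia genes wholly to the left.

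The plot of list members also shows how unevenly the class II and lipid lists are spread. In each a few members sit several log2 units above 0 while others lie near it.

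Chemokines divided by gene. Of 27 tested chemokines and receptors 9 were called higher and 3 lower (median 2.55). Ccl12, a ligand of Ccr2, had 1853 to 4107 CPM in MLC (median 3346) and 235, 99.7 and 81.9 in NoTx (4.51, SE 0.60, adjusted p = 0.000212). Its neighbours Ccl7 and Ccl8 were near absent in NoTx, at no more than 1.10 CPM each, and had 160 to 680 and 90.2 to 421 CPM in MLC (8.88, SE 1.00; 8.54, SE 0.92). Ccr1, a receptor for several of these ligands, had 362 to 689 CPM in MLC and 42.2, 19.8 and 9.20 in NoTx (4.53, SE 0.54, adjusted p = 6.95e-05). Cxcl9, which interferon gamma induces, had 124 to 263 CPM against at most 0.756 (8.58, SE 1.65, adjusted p = 0.00534), and Cxcl16, the membrane-bound ligand of Cxcr6, 218 to 1011 against 59.6 to 92.6 (2.99, SE 0.51, adjusted p = 0.00199).

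A pair of chemokines went the other way. Ccl9 had 321, 330 and 208 CPM in NoTx and 4.17 to 12.5 in MLC (-5.15, SE 0.35, adjusted p = 3.82e-07), and Ccl6 561, 632 and 260 against 49.6 to 136 (-2.35, SE 0.37, adjusted p = 0.00107). Ccr2, the receptor that marks blood monocytes, was low in both groups: 5 MLC libraries had at most 0.698 CPM and replicate 6 had 8.95, against 23.1, 4.74 and 21.6 in NoTx (-3.18, SE 1.46, adjusted p = 0.265).

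Classical inflammatory genes were called in both directions. Of 32 tested cytokine and NF-kB genes 2 were called higher and 1 lower, with a median of 0.25. Over all genes tested 1.88% were higher and 2.18% lower. Leaving out any 1 NoTx library left 1 higher, and leaving out MLC replicate 3 or 6 or NoTx replicate 1 or 2 left 0 lower. DESeq2 called 8 members higher and 2 lower, and limma-voom 5 and 3. Il1b had 0.0872 to 19.96 CPM in MLC and at most 0.376 in NoTx (6.06, SE 2.397, adjusted p = 0.187), and Tnf 0.0291 to 21.1 CPM in MLC and 0, 4.85 and 2.12 in NoTx (1.65, SE 1.94, adjusted p = 0.769). For both, MLC replicate 3 was the lowest. Nlrc4, part of the inflammasome that responds to bacterial flagellin, was higher, with 19.9 to 316 CPM in MLC (median 63.6) against 0.0687, 0.173 and 1.81 (7.32, SE 1.21, adjusted p = 0.00151). Of 21 complement and Fc receptor genes 1 was higher and 2 lower (median -0.10). Itgam, the CD11b chain of complement receptor 3, had 504, 525 and 776 CPM in NoTx and 160 to 220 in MLC (-1.72, SE 0.23, adjusted p = 0.000229). The higher member, the IgG receptor Fcgr4 (3.62, SE 0.81, adjusted p = 0.016), lost its call without NoTx replicate 1 (0.0667) or 3 (0.107).

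Receptors for glycans and debris were higher where they were called. Of 21 tested lectin and scavenger receptors 7 were higher and 0 lower (median 5.09). Clec4n, which encodes dectin-2 for fungal mannans, had 65.2 to 165 CPM in MLC and at most 0.245 in NoTx (9.37, SE 0.95, adjusted p = 1.48e-05). Clec7a, dectin-1, had 124 to 303 CPM against 23.2, 8.48 and 12.8 (3.69, SE 0.50, adjusted p = 0.000229). Msr1 and Cd36, receptors for modified lipoproteins, had 121 to 353 and 209 to 625 CPM in MLC and no more than 4.65 and 1.46 in NoTx (6.93, SE 1.10; 8.54, SE 1.41). The list of lipid and cholesterol handling held 32 tested genes, 5 of them higher and 0 lower (median 0.59), Apoe among them. Apoc1 and Apoc2, apolipoproteins of the same gene cluster, had 0 and 2 counts over the 3 NoTx libraries and 261 and 2772 counts over MLC. Abca1, which exports cholesterol to these carriers, had 491 to 1528 CPM in MLC and 297, 212 and 250 in NoTx (1.60, SE 0.37, adjusted p = 0.0186). Its call was lost without NoTx replicates 1, 2 or 3 (adjusted p = 0.051, 0.132 and 0.0956). The lipid list had 2 calls without any 1 of the 3 NoTx libraries, while DESeq2 called 10 members higher and limma-voom 9.

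Integrins and adhesion molecules differed in both directions. Of 24 tested members 3 were higher and 7 lower (median -0.65). Itgal, which pairs with Itgb2 to form the LFA-1 integrin of leukocytes, had 28.8 to 78.4 CPM in MLC and 0, 0.0578 and 0.155 in NoTx (9.12, SE 1.08, adjusted p = 6.19e-05). Itgb3, the beta chain of the vitronectin receptor, had 8.80, 41.6 and 79.4 CPM in NoTx and at most 0.203 in MLC (-8.51, SE 0.96, adjusted p = 4.05e-05). Pecam1, an adhesion molecule of endothelium and leukocytes, had 32.1, 34.4 and 51.6 CPM in NoTx and 0.137 to 0.907 in MLC (-6.42, SE 0.92, adjusted p = 0.000453). The higher members Itga4 and Vcam1, a receptor and its ligand (6.15, SE 1.53; 5.67, SE 1.42), passed narrowly with adjusted p = 0.0311 and 0.0321. Without NoTx replicate 1 these were 0.107 and 0.0653, and without NoTx replicate 2 0.134 and 0.13, and Itga4 also exceeded 0.05 without MLC replicate 1, 2, 4 or 6 and Vcam1 without MLC replicate 1 or 3 or NoTx replicate 3.

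Genes of disease-associated microglia, a state that microglia enter beside dying cells and plaques, split. Of 27 tested members 6 were higher and 3 lower (median 0.54), and the higher ones numbered 3 without NoTx replicate 2 or 3. Apoe, Clec7a and Axl, a TAM receptor for dying cells (5.62, SE 1.07, adjusted p = 0.00506), were among the higher ones. Cd9, a tetraspanin, had 2483, 2477 and 1423 CPM in NoTx and 438 to 692 in MLC (-1.91, SE 0.28, adjusted p = 0.000476), and the protease gene Ctsl 523, 660 and 814 against 107 to 169 (-2.24, SE 0.27, adjusted p = 7.32e-05). Of 36 lysosome and phagocytosis genes 2 were higher and 4 lower (median -0.33), and the lower ones numbered 2 without MLC replicate 6 or NoTx replicate 1 or 2. Ctsc, the cathepsin that activates serine proteases, had 4139 to 9010 CPM in MLC and 2264, 1924 and 1367 in NoTx (1.85, SE 0.32, adjusted p = 0.00205).

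Of 26 tested receptors that sense neurons and purines 5 were called lower and 1 higher (median -0.54). Besides P2ry12 and P2ry13 the lower ones included Adora3, an adenosine receptor, with 407, 348 and 328 CPM in NoTx and 0.438 to 20.1 in MLC (-5.35, SE 0.74, adjusted p = 0.000327). P2ry14, a receptor for UDP-glucose, was the higher one, with 26.9 to 113 CPM in MLC and at most 0.344 in NoTx (8.21, SE 1.30, adjusted p = 0.00107). Slc1a3, a glutamate transporter that microglia and astrocytes both use, had 270, 428 and 432 CPM in NoTx and 2.19 to 19.4 in MLC (-5.04, SE 0.47, adjusted p = 5.47e-06). In the TGF-beta list 2 of 22 members were higher, 1 without NoTx replicate 1 or 2, and 7 with DESeq2. The higher ones included the ligand Gdf3 with 2.65 to 58.6 CPM in MLC and at most 0.344 in NoTx (7.39, SE 1.17, adjusted p = 0.00104).

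The largest differences among abundant genes lay partly outside these lists. On the higher side stood Thbd, thrombomodulin of the anticoagulant pathway (10.09, SE 1.29), the serpins Serpina3g (9.72, SE 1.62) and Serpinb8 (9.09, SE 0.83), the noncoding RNA Mexis (9.59, SE 1.59), the adaptor Stap1 (9.41, SE 1.46), the paired receptor Cd300ld (9.26, SE 1.18) and the C1q-like receptor Cd93 (9.24, SE 1.79), besides Spic, Clec4n, Mndal and Itgal. NoTx libraries had no more than 0.344 CPM of any of these 7. Mexis was at 0.398 CPM in MLC replicate 5 and at 26.0 to 76.0 in the other 5. On the lower side Upk1b, a uroplakin of the tetraspanin family, had 614, 764 and 383 CPM in NoTx and 0.822 to 3.05 in MLC (-8.58, SE 0.43, adjusted p = 1.02e-08). Hspb3, a small heat shock protein, had 56.2, 70.8 and 41.8 CPM against at most 0.398 (-7.95, SE 0.58), and Fscn1, which bundles actin, 32.4, 35.3 and 62.9 against at most 0.272 (-8.10, SE 0.71). Zfp697 (-8.86, SE 0.98), Tmem204 (-7.93, SE 0.63), the lipase Liph (-7.91, SE 0.63), the glycosyltransferase B3galt5 (-7.65, SE 1.16) and Eva1a (-7.49, SE 0.60) completed this group with Itgb3 and Sall3. The predicted gene Gm3264 and ENSMUSG00000121895, known by identifier only, also stood on the lower side, and ENSMUSG00000121482 on the higher one.

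**Figure D4:**
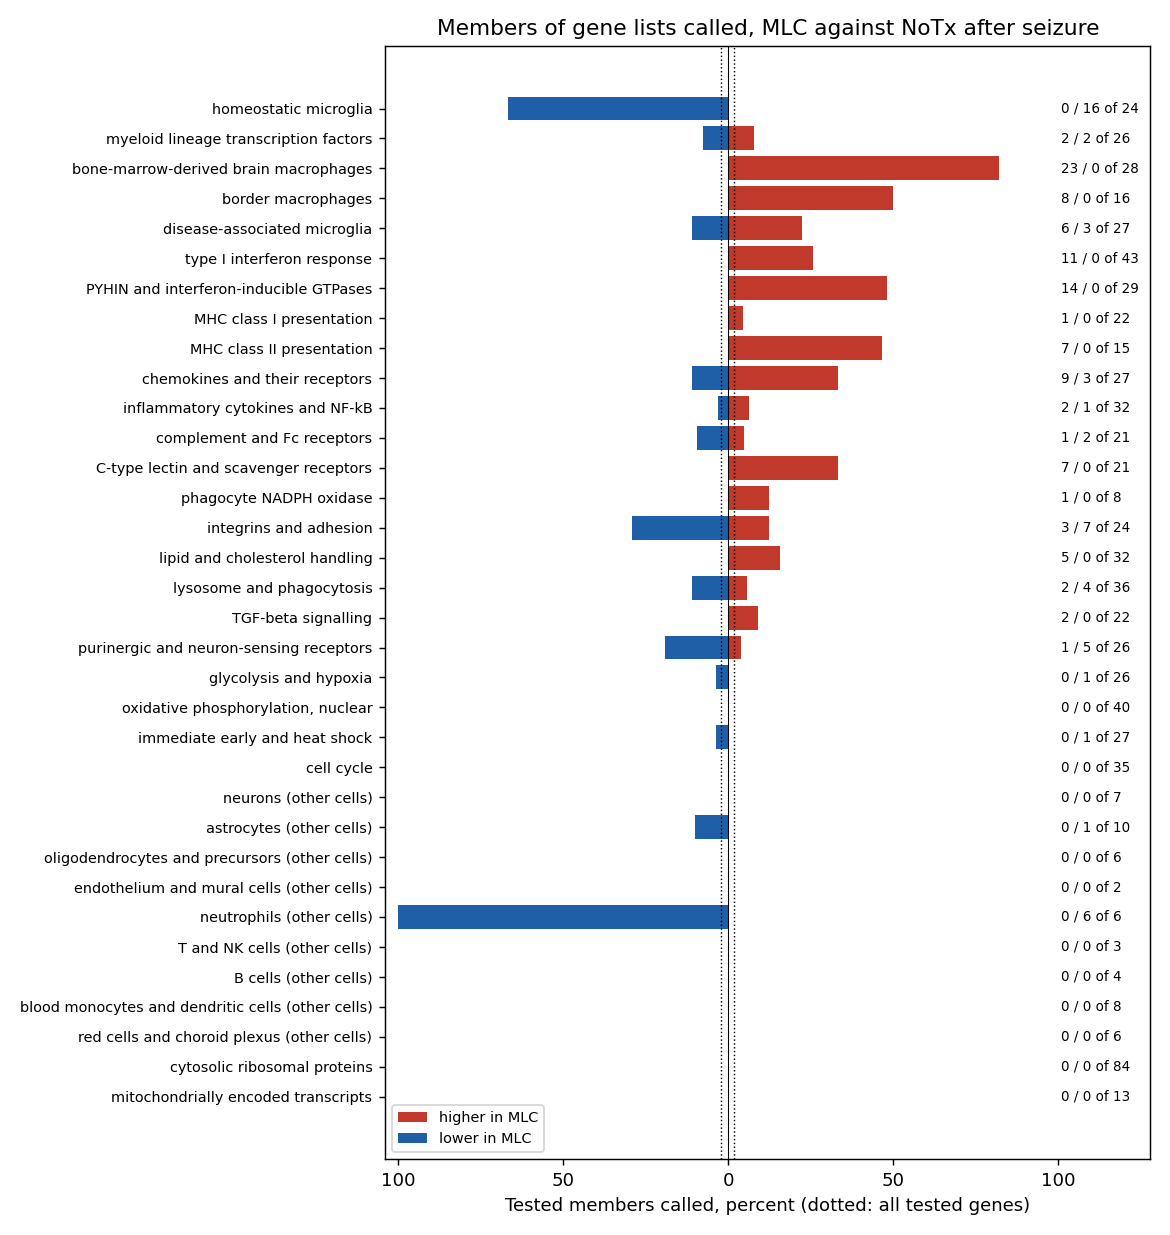
Share of tested members called higher (red, to the right) or lower (blue, to the left) in MLC, in percent (x axis), for each gene list except sex-linked transcripts. Counts of higher and lower members stand at the right edge, and dotted lines mark the shares over all genes (1.88% and 2.18%). The list left out had 2 of 6 tested members lower, Xist and Tsix. Lists were written with earlier results of these data known. Bone-marrow-derived macrophage genes reach furthest on the higher side (23 of 28), and the neutrophil genes on the lower side (6 of 6) lost their calls without NoTx replicate 3.

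The plot of shares by list also shows where nothing was called. No member of the lists of nuclear oxidative phosphorylation (40 tested, median -0.14), cell cycle (35, 0.03), cytosolic ribosomal proteins (84, 0.23) or mitochondrially encoded transcripts (13) was called. All 13 mitochondrial transcripts had a positive value (median 1.07), and their share of counts was 0.661% to 2.51% in MLC and 0.522% to 0.943% in NoTx. Over all genes tested 2.18% were called lower. Of 26 glycolysis and hypoxia genes 1 was lower, Pdk1, a kinase that restrains pyruvate dehydrogenase (-2.49, SE 0.46, adjusted p = 0.00414). DESeq2 called 3 members of this list lower and limma-voom 4. Of 27 immediate early and heat shock genes 1 was lower, Rhob (-1.39, SE 0.29, adjusted p = 0.0102), and it lost its call with the GC-content correction (0.659) and without NoTx replicate 2 (0.0648).

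In such sorted bulk samples fewer cells of a type and less RNA per cell cannot be told apart. Among markers of other cells, 6 of 14 neutrophil genes were tested and all 6 called lower in MLC. S100a8, an alarmin of neutrophils, had 0.550 and 1.44 CPM in NoTx replicates 1 and 2 and 175.5 in replicate 3, against 0.688 to 1.92 in MLC. Ngp, a granule protein, had 3.37, 8.62 and 325 CPM in NoTx and 0.959 to 13.8 in MLC, and Camp and Ltf, of the same granules, had 97.7 and 174.8 CPM in NoTx replicate 3 and no more than 1.03 and 0.578 in the other 2. Without NoTx replicate 3 no member was called, and the log2 fold changes of S100a8 and Ltf turned from -5.38 to 0.41 and from -5.79 to 0.99. Csf3r, the receptor for the growth factor G-CSF, differed from these: it had 94.3, 229.5 and 617.5 CPM in NoTx, 139.9 in MLC replicate 2 and 12.9 to 57.4 in the other 5 MLC libraries. Its log2 fold change was -2.59 (SE 0.64, adjusted p = 0.0296) and remained negative under all 24 alternatives, between -3.18 and -1.54, though 10 of them lost the call. Calls in the list numbered 3 without MLC replicate 1 and 1 each without MLC replicate 4 or 6. The summed list was 101, 242 and 1471 CPM in NoTx and 22.4 to 144 in MLC. Ly6g, Elane and Mpo, which define neutrophils and their precursors, had at most 0.0687 CPM in all 9 libraries, and the monocyte genes Chil3 and Hp were at 98.9 and 17.0 CPM in NoTx replicate 3 and at no more than 0.929 CPM in the other 8. Of 12 B-cell genes 4 were tested and 0 called, but their sum did not overlap, at 226 to 673 CPM in MLC and 754 to 1387 in NoTx. Most of it was Ighm, the heavy chain of IgM, with 597, 1189 and 857 CPM in NoTx and 172 to 571 in MLC (-1.06, SE 0.36, adjusted p = 0.126). Pax5 and Cd79a, which define B cells, were at 0 in all 9 libraries. The part of such cells in other differences was not tested.

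Of the other lists, astrocytes had 1 lower member of 10 tested, Slc1a3, and neurons (7 tested), oligodendrocytes and precursors (6), endothelium and mural cells (2), lymphocytes of the T and NK (3) and B lineages (4), blood monocytes with dendritic cells (8) and red cells with choroid plexus (6) had none. Cd3e, which defines T cells, was at 0 in all 9 libraries. Snap25, a synaptic protein, had 0.133 to 27.6 CPM in MLC and at most 0.206 in NoTx, and Hba-a1, a globin, 4.38 to 243 CPM in MLC and 0.138, 27.4 and 23.9 in NoTx, and their part in other differences was not tested. Xist and its antisense partner Tsix were called lower (-5.75, SE 0.90; -6.69, SE 0.99), and with NoTx replicate 2 alone the value for Xist was 0.38.

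The same contrast after saline rests on other libraries and shares none with the one after seizure, but it also differs in batch (2 against 1). Fitted on its own it gave 891 calls among 17285 genes (5.15%), 421 higher (2.44%) and 470 lower (2.72%). Among 14016 genes tested in both, 162 were higher in both, which is 60.9% of the seizure calls and 38.9% of the saline calls. Lower in both were 175, or 56.8% and 41.7%. Of the seizure calls tested in saline 258 higher and 286 lower ones had the same sign there, 8 and 22 the opposite sign, and 0 were called in the opposite direction. Sall1 had log2 fold changes of -5.80 after seizure and -6.95 after saline, P2ry12 -3.00 and -3.25, Ms4a7 8.71 and 6.49 and Apoe 7.68 and 9.21, all called in both.

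**Figure D5:**
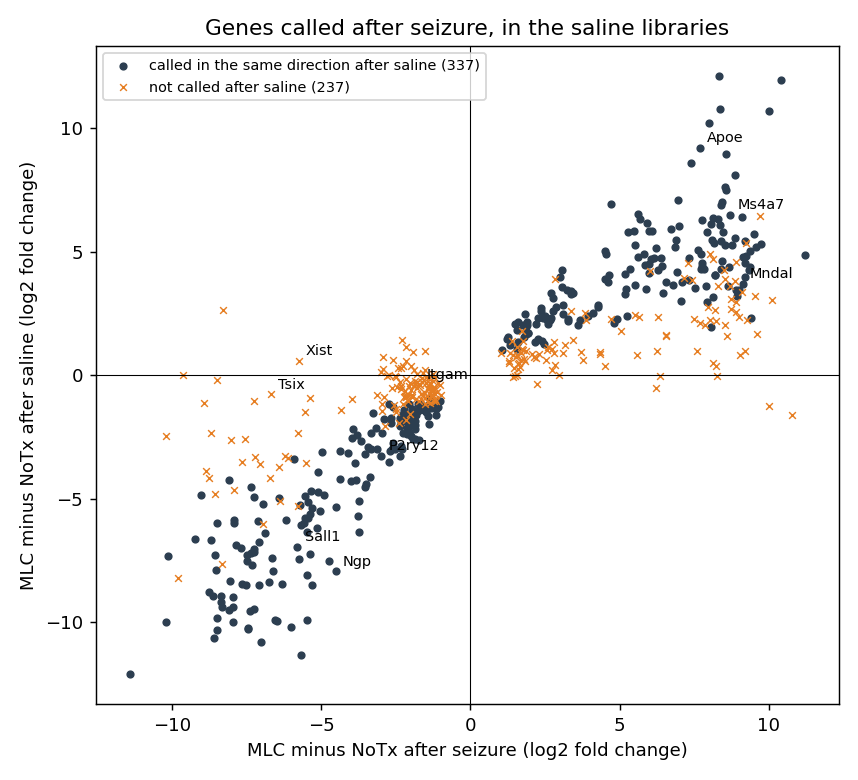
Log2 fold change between MLC and NoTx after seizure (x axis) and after saline (y axis) for genes called after seizure, marked by whether they were also called after saline (337 circles) or not (237 crosses). Most points lie in the lower left and upper right quadrants, where both values have the same sign.

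The plot of both treatments shows that Itgam, Xist and Tsix were not called after saline. Ngp, whose call after seizure rested on NoTx replicate 3, was also called lower after saline, where the NoTx libraries had 36.9 and 856 CPM. A test of the difference itself is the interaction of cell kind with treatment over all 21 libraries. Levels after seizure and after saline were normalised separately here. The interaction called 5 of 18867 genes (0.0265%), all higher, with 1529 at an unadjusted p under 0.05. Cd38 had 58.4 to 114 CPM in MLC after seizure and 61.3 to 108 after saline, whereas NoTx had at most 0.481 after seizure and 6.50 and 6.76 after saline (interaction 5.06, SE 0.84, adjusted p = 0.0197). For Mndal MLC had 151 to 341 CPM after seizure and 108 to 271 after saline, and NoTx at most 0.549 and then 6.24 and 21.7 (5.45, SE 0.83, adjusted p = 0.0197). In both genes the MLC ranges overlapped between treatments and the NoTx libraries did not. The predicted gene Gm21188 followed the same pattern, with 32.4 to 182 CPM in MLC after seizure, 16.3 to 78.0 after saline, at most 0.275 in NoTx after seizure and 15.4 and 64.4 after saline (8.33, SE 1.33, adjusted p = 0.0197). The remaining 2, 4930523C07Rik and Gm36161, had average levels below the minimum set for named genes, and are given because so few genes were called. Csf1r (-3.15, SE 1.07, adjusted p = 0.589) and Cx3cr1 (-2.05, SE 0.83, adjusted p = 0.589) did not pass. Treatment and batch cannot be told apart in this test, and leaving out NoTx saline replicate 2, or MLC saline replicate 1 or 3, left 0 calls, while leaving out NoTx seizure replicate 3 left 9.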

How the data were processed

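RNA was isolated from FACS-sorted brain cells with the RNeasy micro kit, and libraries were made with a low-input kit, per the labels' protocols. The authors deposited 1 table of estimated counts for 57180 genes, of which 46.5% were 0 in every library. The submitters' processing notes name Trim Galore 0.6.7, STAR 2.7.10a, featureCounts (Subread 2.4.5), DESeq2 1.36.0 and the build GRCm39. The notes do not say how reads shared by several genes were divided, but 28.2% to 43.5% of non-zero values in the 9 libraries were not whole, and values were rounded before testing.

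Library totals of 6571292 to 73842049 counts limit the precision of low genes. Genes were filtered with filterByExpr and scaled by TMM, and edgeR 4.0.16 (R 4.3.3) fitted robust quasi-likelihood models to the 13 seizure libraries, from which the contrast of MLC with NoTx was taken. SE is the size of the log2 fold change divided by the square root of F. Genes were called at a Benjamini-Hochberg adjusted p under 0.05. The saline contrast came from 8 saline libraries and the interaction from all 21. The alternatives used DESeq2 1.42.0, limma 3.58.1 (voom), other scaling, filters and sets of libraries, a replicate block, and an offset for GC content, known for 96.6% of tested genes. The model fits were checked on simulated data, where DESeq2 made more false calls than edgeR or limma-voom. It also recovered more of the genes made to differ, at every size of difference tried. A gene not called by edgeR may therefore still differ.

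Named genes were Csf1r and Cx3cr1, the 12 largest changes in each direction among called genes whose groups did not overlap and whose mean log2 CPM reached 4, up to 5 in each direction for the interaction, and members of 35 gene lists. Members and lists were chosen with earlier results of these data known. The deviations of same-numbered MLC and NoTx libraries correlated from -0.08 to 0.05, and those of libraries with the same code from -0.08 to 0. No pairing was thus seen, but 3 NoTx libraries are too few to exclude it. Where labels do not say that libraries came from separate animals, p-values measure only the spread between these libraries. A few list members are counted in their lists but not reported here by name.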

Additional observations from a re-analysis of the deposited data

Results flagged for a closer look

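In 6 MLC libraries a single library can stand apart from the other 5. Its gap to the nearest value was compared with the whole range. A library stood apart in 23 of 152 groups of values examined, or 15.1 per 100. A rate of about 1 in 20 would hold for independent values with a normal spread. The values were mostly untransformed CPM of chosen genes in the same libraries, so these rates cannot be compared. MLC replicate 5, the library at the GC-poor end, accounted for 11 of the 23. In it P2ry14 (112.6 CPM), Gpr34 (6130), Igf1 (1050), Gbp8 (427.6), Ccl2 (864.8), Nlrc4 (315.6), Abca1 (1528), Tmem204 (1.194), Gm21188 (182.3) and Ddx3y (983.5) were far above the other MLC libraries, and Trem2 (581.7 CPM, against 1212 to 1397) far below.

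MLC replicate 1 stood apart for ENSMUSG00000121482 (17.66 CPM, the lowest), Liph (1.723) and Ngp (13.78). MLC replicate 2 did so for Cx3cr1 (3019 CPM) and Csf3r (139.9), and MLC replicate 3 for Itgal (78.39 CPM), Zbp1 (67.31) and its total (37.49, in units of 1e6 counts). MLC replicate 4 was highest for Jam2 (5.082 CPM), and MLC replicate 6 for Ccr2 (8.947), Pdk1 (27.4) and Xist (7.946).

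The difference between MLC and NoTx itself differed between seizure and saline for 5 genes in edgeR's quasi-likelihood test with Benjamini-Hochberg adjustment. The interaction was 5.056 on the log2 scale for Cd38, 5.448 for Mndal, 8.333 for Gm21188, 7.898 for 4930523C07Rik and 11.311 for Gm36161, with adjusted p from 0.0197 to 0.0215. Gm36161 had 3 counts over the NoTx seizure libraries, so its value depends on the prior count of the fit. Seizure and saline libraries belong to different batches, and these cannot be told apart.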

How the results depend on the processing

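After seizure 574 genes were called, 266 higher and 308 lower. DESeq2 called 1544 (1006 and 538), limma-voom 1386 (612 and 774) and edgeR with all 21 libraries in the fit 1162 (481 and 681). Higher genes made up 46.3% of calls, 65.2% with DESeq2 and 59.7% with only the 9 MLC and NoTx libraries. MLC replicates 3 and 6 left out gave 345 (166 and 179), summing them lowered the lower calls to 202, and NoTx replicate 2 alone gave 145 (55 and 90). No pairing by number was seen, and the replicate block gave 371 calls with 182 lower, or 195 lower with the GC-content offset as well. A block by library code gave 539 calls. Without single libraries calls ran from 349 to 581 (higher 150 to 254, lower 193 to 327). Of 133 called genes examined singly, 60 kept their call in all settings that tested them, 62 of 132 tested did with NoTx replicate 2 alone, and 3 changed sign in some: Ltf and Xist with NoTx replicate 2 alone (0.87 and 0.38), and S100a8 and Ltf without NoTx replicate 3 (0.41 and 0.99; without other single libraries they ran down to -5.96 and -6.37). The interaction called 5 genes, but 208 with DESeq2 (149 higher, 59 lower), 40 with limma-voom (37 and 3), 9 without the low-count filter (9 higher) and 0 to 9 without single libraries (higher 0 to 9, lower 0 to 1). After saline 891 were called, 2053 with DESeq2 (1114 and 939), 237 with all 21 libraries (84 and 153), and 347 to 835 without single libraries (higher 142 to 344, lower 205 to 495). Without the 3 seizure libraries of lowest complexity, a choice made after seeing the data, 760 were called. The causes were not tested.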
